A study of Mus musculus with 1307 samples.

Results

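Rgs5-low smooth muscle cells were selected from the single cells of mouse hearts on 4 measured levels in each cell, in CPM (counts of a gene per 1000000 counts of that cell). A cell was a member at 1000 CPM or more of Myh11 with less than 1000 CPM of Rgs5, less than 500 CPM of Vtn and less than 2500 CPM of Kcnj8 and Abcc9 together. The members were thus chosen by their own Myh11, Rgs5, Vtn, Kcnj8 and Abcc9 levels, and the rule left 114 of 1307 cells. Of these, 73 came from ACTA2GFP:CSPG4dsRED mouse 1, 37 from ACTA2GFP:CSPG4dsRED mouse 2, 1 from ACTA2GFP:CSPG4dsRED mouse 3 and 3 from C57BL/6 mouse 1. The working name of the class also called it matrix-rich, which the levels of its cells bear out only in part, as given below.

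Smooth muscle cells form the contractile wall of arteries and veins. They shorten when smooth muscle myosin, whose heavy chain Myh11 encodes, is activated by calcium, and they also lay down the elastic fibres, collagens and basement membrane on which the wall recoils. Rgs5 is a regulator of G protein signalling that is abundant in pericytes and in the smooth muscle of many small arteries. Vtn, which encodes vitronectin, and Kcnj8 and Abcc9, which encode the subunits of an ATP-sensitive potassium channel, mark cardiac pericytes, so the rule sets these cells aside.

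The series holds cells of unperturbed hearts from mice 8 to 30 weeks old, sorted into plates of 384 wells and made into full-length cDNA libraries without molecular identifiers. ACTA2GFP:CSPG4dsRED mice carry, by their name, a green reporter linked to Acta2 and a red reporter linked to Cspg4, and C57BL/6 mice carry neither in their name. The labels call ACTA2GFP:CSPG4dsRED mouse 3 female, although the design text names males. No plate held cells of more than 1 of the 4 largest animals, so animal and plate cannot be told apart. How the sort was gated is not given in the sources used here. Compared with the members were 101 Rgs5-high smooth muscle cells (the same rule with 1000 CPM or more of Rgs5), 87 pericytes (2500 CPM or more of Kcnj8 and Abcc9, Myh11 under 1000 CPM), 509 fibroblasts (Dcn at 1000 CPM or more, Myh11 under 200 CPM) and 44 other Myh11-positive mural cells with Vtn or the channel subunits above their thresholds. By these rules 8 cells were both pericytes and fibroblasts.

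Members had a median of 311558 counts per cell, from 58933 to 566817, and a median of 4839.5 detected genes. Rgs5-high smooth muscle cells had a median of 213683 counts and 3977 genes. Within mouse 1 the median depth was 363745 counts in members and 278058 in Rgs5-high cells, and within mouse 2 it was 202408 and 191027. Members made up 19.8% of the cells of ACTA2GFP:CSPG4dsRED mouse 1 (95% exact binomial interval 15.9 to 24.3, 73 of 368 cells) and 15.1% of those of mouse 2 (10.9 to 20.2, 37 of 245). In mouse 3 the share was 0.298% (0.00753 to 1.65, 1 of 336) and in C57BL/6 mouse 1 it was 0.865% (0.179 to 2.51, 3 of 347). These intervals cover counting error only. Among cells with 1000 CPM or more of Myh11, members were 49.0% in mouse 1 (40.7 to 57.3) and 44.0% in mouse 2 (33.2 to 55.3), and 1 of 20 in mouse 3. In C57BL/6 mouse 1 they were 3 of 6 (50%, 11.8 to 88.2).

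The Rgs5 threshold fell in a thinly filled range. Members just inside it held 856, 778 and 731 CPM, and Rgs5-high cells just outside it held 1026, 1185 and 1380 CPM. Of the cells that met the other 3 criteria, 78 had 10 to 100 CPM of Rgs5, 11 had 500 to 1000, 9 had 1000 to 2000 and 56 had more than 5000. The Myh11 threshold had no such gap, with 1010, 1019 and 1023 CPM inside and 945, 815 and 771 CPM outside. For Vtn, the nearest member held 173 CPM and the only cell left out on that measure alone held 4333 CPM. The highest sum of Kcnj8 and Abcc9 in a member was 1081 CPM, and no cell was left out on that sum alone.

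**Figure D1:**
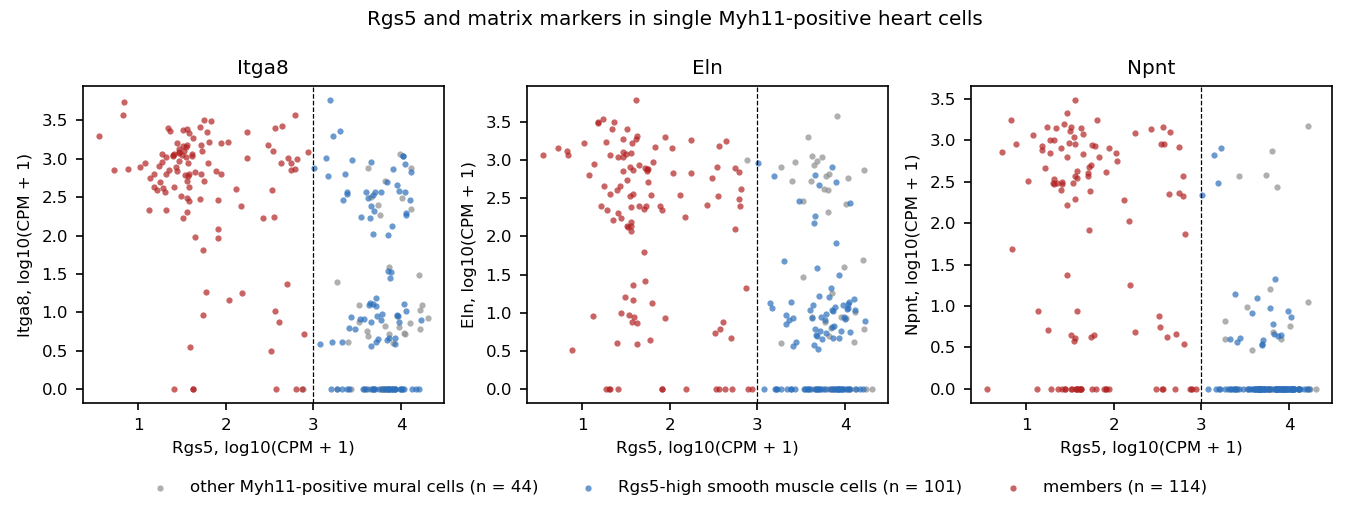
Each point is 1 heart cell with 1000 CPM or more of Myh11, with Rgs5 on the x axis and Itga8, Eln or Npnt on the y axis, all as log10(CPM + 1); the dashed line is the threshold of 1000 CPM of Rgs5, and the 114 members lie left of it. Members form a cloud at low Rgs5 with high Itga8 and Eln, with a scatter of members at or near 0.

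The genes given as markers of the class were Myh11, Cnn1, Itga8, Npnt, Eln and Sost, and their values are a description, since they came with the choice of the class. Cnn1, which encodes the actin-binding protein calponin, stood at 1561 CPM in the summed members of mouse 1 and 2004 CPM in those of mouse 2, against 841 and 879 CPM in the Rgs5-high cells of the same mice. Itga8, the integrin alpha chain that binds nephronectin, stood at 767 and 1425 CPM against 202 and 495 CPM. Npnt, which encodes nephronectin itself, a basement membrane ligand of that integrin, stood at 476 and 392 CPM against 24.5 and 13.8 CPM. In each of these genes both sums of members lay above both sums of Rgs5-high cells.

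Eln, which encodes elastin, the rubber-like core of elastic fibres, stood at 757 and 906 CPM against 75.8 and 92.8 CPM. Sost, which encodes the Wnt antagonist sclerostin, stood at 217 and 180 CPM against 14.996 and 0.691 CPM. In mice 1 and 2 together, 1 cell supplied 84.1% of the Sost counts of the Rgs5-high class. Pericytes held 16.3 and 51.0 CPM of Eln and 1.01 and 1.87 CPM of Npnt, while fibroblasts held 201 and 428 CPM of Eln and 47.6 and 31.8 CPM of Npnt. Among the 5 classes, members were highest in Itga8, Npnt, Eln, Sost and Cnn1 in both mice.

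Cell by cell the marker genes were uneven. At a level of 100 CPM or more, Itga8 was present in 80.8% of the members of mouse 1 and 89.2% of those of mouse 2, Eln in 71.2% and 67.6%, Npnt in 58.9% and 54.1%, and Sost in 30.1% and 29.7%. Itga8 ran from 0 to 2613 CPM in the members of mouse 1, with a median of 634 CPM, and from 0 to 5441 CPM in those of mouse 2, with a median of 1092 CPM. With each cell thinned to 50000 counts these shares of members were 80.8% and 89.2% for Itga8, 71.2% and 67.6% for Eln, 60.3% and 54.1% for Npnt, and 30.1% and 29.7% for Sost, against 26% and 50%, 8% and 15.6%, 4% and 3.12%, and 2% and 0% in Rgs5-high cells. The median member of either mouse held 0 CPM of Sost, which therefore marks a minority of the class. Counting Itga8, Npnt, Eln and Sost together, 15 of 73 members of mouse 1 had all 4 at that level and 8 had none, and in mouse 2 these were 9 and 3 of 37. In Rgs5-high cells of the same mice no cell had all 4. Of those cells, 35 of 50 in mouse 1 and 13 of 32 in mouse 2 had none.

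Across member cells, Itga8 went with Sost (Spearman's rho 0.493 in the 73 members of mouse 1 and 0.681 in the 37 of mouse 2) and with Eln (0.527 and 0.536). Its correlation with the number of counts per cell was 0.131 and 0.19. All these cells share an animal and a plate, so the coefficients describe the plates.

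**Figure D2:**
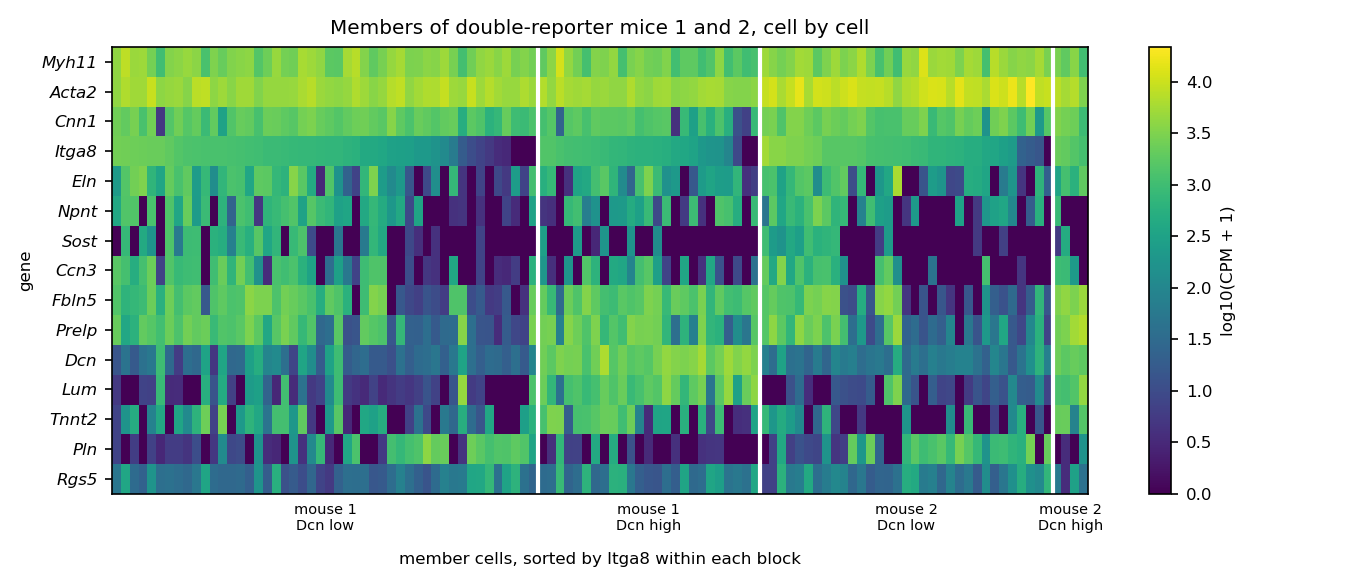
Columns are the 110 members of ACTA2GFP:CSPG4dsRED mice 1 and 2, split by mouse and by Dcn at 1000 CPM (low or high) and sorted by Itga8 within each block; rows are genes and colour is log10(CPM + 1). The bright stretches of Pln lie where Fbln5 and Ccn3 are mostly dark, and Sost is dark in most columns.

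Members differed in Pln, which was not part of the rule. They are split here at 100 CPM of Pln, a cut on a single gene chosen after the cells had been seen. The values are thus a description, and whether the members form separate kinds of cell was not tested. Pln encodes phospholamban, which restrains the calcium pump of the sarcoplasmic reticulum. It was at 100 CPM or more in 25 of 73 members of mouse 1 and 22 of 37 of mouse 2. Median depth was 319760 counts in the cells with Pln and 386849 in those without in mouse 1, and 208744 against 199675 in mouse 2.

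Members with Pln were rich in several receptor and signalling genes. Olfr78, a G protein-coupled receptor of the olfactory family found in vascular muscle, stood at 462 and 536 CPM in members with Pln of mice 1 and 2, against 0.95 and 40.1 CPM in members without it. Olfr558, another such receptor, stood at 635 and 1154 CPM against 17.2 and 5.09 CPM. S1pr3, a receptor for sphingosine 1-phosphate, stood at 648 and 963 CPM against 3.19 and 3.89 CPM, and the regulator of G protein signalling Rgs4 at 1233 and 1694 CPM against 89.7 and 182 CPM. Nrip2, a nuclear receptor-interacting protein, stood at 744 and 772 CPM against 4.42 and 23.9 CPM. In each of these genes both sums of cells with Pln lay above both sums of cells without it. They were picked after the cells had been seen, and the share of all genes that lay so was not computed. Itga8 split less, at 100 CPM or more in 68% and 86.4% of members with Pln and 87.5% and 93.3% of the rest.

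The matrix genes looked at stood higher in members without Pln. Fbln5, the elastic fibre assembly protein fibulin-5, stood at 1758 and 2788 CPM in members without Pln against 682 and 796 CPM in members with it, and was at 100 CPM or more in 97.9% and 93.3% of the former but 36% and 22.7% of the latter. Eln was at that level in 85.4% and 100% of members without Pln, against 44% and 45.5% of members with it. Col3a1, the chain of type III collagen, was at that level in 100% and 93.3% against 40% and 45.5%. Sost was at that level in 39.6% and 60% against 12% and 9.09%. Fibroblast transcripts stood higher in members without Pln as well, with Dcn at 1389 and 630 CPM against 338 and 258 CPM and Lum at 943 and 791 CPM against 227 and 476 CPM, and their part in the difference was not tested. By these genes the name matrix-rich described members without Pln, 48 of 73 in mouse 1 and 15 of 37 in mouse 2, better than the others.

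Some members also carried a fibroblast transcript at the level that defined the fibroblasts here. Dcn, which encodes the proteoglycan decorin, was at 1000 CPM or more in 25 of 73 members of mouse 1 and 4 of 37 of mouse 2. In mouse 1 these cells held 1735 CPM of the collagen-binding proteoglycan Lum, against 209 CPM in the other members, and 2151 against 211 CPM of the fibulin Fbln1. They held 2517 against 3536 CPM of Myh11 and 2.53 against 131 CPM of Casq2, the calcium store protein calsequestrin. Of these 25 cells 3 had Pln at 100 CPM or more. The 4 such cells of mouse 2 also held more Lum and Fbln1 than the other members there, with Fbln1 at 1050.5 against 107 CPM. Other fibroblast genes, which stood higher in these cells in mouse 1, followed only in part in mouse 2. The collagen genes Col1a1, Col1a2 and Col3a1 were higher in these cells of mouse 2 too, with 1904 against 736 CPM of Col1a1. Dpt, at 107 against 7.13 CPM, and Pi16, at 5.94 against 2.48 CPM, were also higher there. Pdgfra and Tcf21 were lower and Gsn was nearly level. Pdgfra stood at 0.743 against 11.8 CPM there, Tcf21 at 0.743 against 8.37 CPM and Gsn at 1706 against 1655 CPM. Elastin did not follow Dcn in the same way, with 573 against 847 CPM in mouse 1 and 1185 against 847 CPM in mouse 2. Counts without these cells are given beside several of the results below.

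The first comparison set members against Rgs5-high smooth muscle cells, both summed within each animal. ACTA2GFP:CSPG4dsRED mice 1 and 2 had at least 5 cells of both classes, so each class had 2 sums (n = 2 mice) and the mouse was kept as a block. Nothing in the labels ties the mice to separate litters or days. The classes were cut on expression in the same libraries that were then tested. A p-value therefore measures only whether a difference recurred in 2 animals. By edgeR's quasi-likelihood test with Benjamini-Hochberg adjustment, 0 of 13736 genes outside the rule and the given markers were called (0%), and 1628 had an unadjusted p under 0.05 (11.9%; 1020 higher in members and 608 lower). DESeq2, run as an alternative, called 1109 genes (8.07%), of which 707 were higher (5.15%) and 402 lower (2.93%) in members. Levels in this comparison are therefore given as values per mouse, and the genes named were chosen after their values were seen. The measure used beside them is whether both sums of members lay on 1 side of both sums of Rgs5-high cells, which held for 22.6% of all genes on the higher side and 18.7% on the lower side.

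Elastic fibre genes stood higher in the members almost throughout. Of 18 tested genes of that list, 14 lay above in both mice and 0 below, with a median log2 difference of 2.24 against 0.09 over all genes tested, and DESeq2 called 11 of them higher and 0 lower. Fbln5 stood at 1411 and 1650 CPM in members against 130 and 118 CPM (log2 difference 3.62, SE 0.21, edgeR adjusted p = 0.0976). Mfap4, a glycoprotein of the microfibrils around elastin, stood at 1258 and 1479 CPM against 105 and 88.5 CPM. Ltbp1, which stores latent TGF-beta in the matrix, stood at 797 and 735 CPM against 296 and 232 CPM. Lox, the enzyme that cross-links elastin and collagen, stood at 109 and 233 CPM against 20.9 and 64.3 CPM, and its relative Loxl1 at 432 and 459 CPM against 85.0 and 75.0 CPM. In all 5 genes the members of both mice lay above the Rgs5-high cells of both mice. Fbn1, the microfibril protein fibrillin-1, overlapped between the classes at 264 and 149 against 161 and 135 CPM.

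Collagens and proteoglycans followed the same pattern. Of 27 tested genes, 21 lay above in both mice and 2 below (median log2 difference 2.17), and DESeq2 called 20 higher and 1 lower. Col3a1 stood at 1330 and 1478 CPM against 131.8 and 109 CPM, and Col1a1, a chain of type I collagen, at 895 and 938 CPM against 77.3 and 46.2 CPM. Fn1, which encodes fibronectin, stood at 248 and 365 CPM against 16.98 and 11.9 CPM. The small proteoglycan Ogn stood at 957 and 1072 CPM against 67.6 and 69.0 CPM (log2 difference 3.89, SE 0.20, edgeR adjusted p = 0.0976). Bgn, which encodes biglycan, was abundant in both classes at 3388 and 5337 CPM against 1114 and 1585 CPM. Aspn, which encodes asporin, ran the other way at 414 and 349 against 598 and 616 CPM.

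Fibroblast markers stood higher in members too, and their part in these differences was not tested. The 10 genes of that marker list, all detected in both classes, summed to 7750 and 6467 CPM in the members and 2624 and 2561 CPM in Rgs5-high cells, while fibroblasts held 19878 and 29623 CPM. Without the members at 1000 CPM or more of Dcn, 13 of 18 elastic fibre genes lay above in both mice and 1 below. Of the 27 collagen and proteoglycan genes, 18 lay above and 3 below. Over all 13369 genes tested, 2735 lay above and 2490 below without those members. Fbln5 then stood at 1254 and 1146 CPM, Col3a1 at 944 and 1119 CPM and Ogn at 802 and 909 CPM in members. Fbln1 depended more on those cells, with 850 and 270 CPM in all members and 211 and 107 CPM without them, against 61.6 and 6.22 CPM in Rgs5-high cells.

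Macrophage markers summed to 10.3 and 6.16 CPM in the members, with Adgre1 at 0, and Schwann cell markers to 73.4 and 28.6 CPM, with Foxd3 at 0. Mesothelial and lymphocyte markers summed to 1.54 CPM or less in either mouse. Endocardial markers summed to 86.2 and 64.5 CPM in members against 22.2 and 10.03 CPM in Rgs5-high cells, and valve-like markers to 149 and 292 against 57.5 and 122 CPM. Smooth muscle markers summed to 15145 and 21226 against 15696 and 19584 CPM, and pericyte markers, which include genes of the rule, to 1325 and 1839 against 7499 and 10539 CPM. Endothelial markers summed to 171 and 60.7 CPM in members and 159 and 157 CPM in Rgs5-high cells. The cardiomyocyte list summed to 751 and 750 CPM against 795 and 268 CPM, much of it from Tnnt2 and Actc1, which encode cardiac troponin T and cardiac actin. Tnnt2 was at 100 CPM or more in 40 of 73 members of mouse 1 and 14 of 37 of mouse 2.

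Basement membrane genes were mixed. Of 19 tested, 9 lay above and 2 below (median log2 difference 0.62), and without the Dcn-positive members 7 lay above and 3 below. Col18a1, whose product yields endostatin, stood at 562 and 721 CPM against 99.8 and 58.9 CPM, and the perlecan gene Hspg2 at 160 and 169 CPM against 58.4 and 42.4 CPM. The laminin chain Lama5 lay the other way, at 89.8 and 172 CPM against 221 and 220 CPM. Among integrins, Itga5, the fibronectin receptor chain, stood at 337 and 251.3 CPM against 34.2 and 39.6 CPM, and Itga7, a laminin receptor chain of muscle, at 211 and 193 CPM against 742 and 632 CPM. The 2 integrins thus lay on opposite sides, each without overlap between the classes.

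**Figure D3:**
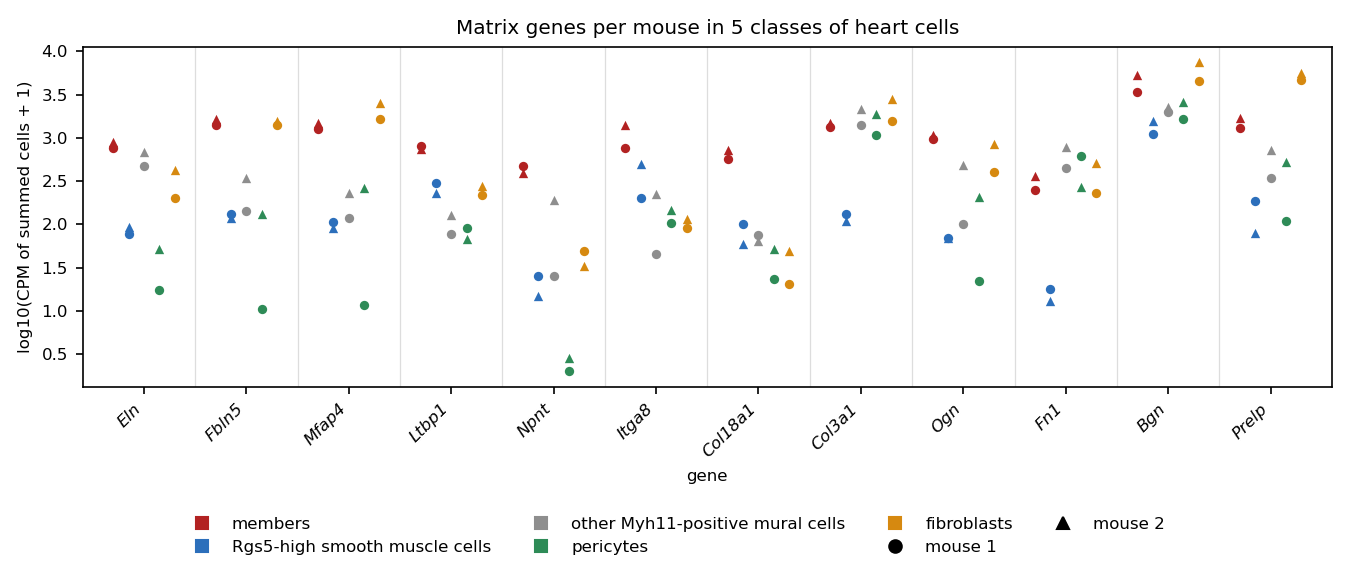
Levels of 12 matrix genes and integrins as log10(CPM + 1) of the summed cells of each class, in ACTA2GFP:CSPG4dsRED mouse 1 (circles) and mouse 2 (triangles). Members lie above Rgs5-high cells in every gene shown, by far in Npnt, Fbln5 and Fn1, while fibroblasts reach or pass the members in Fbln5, Mfap4, Bgn and Prelp.

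Antagonists of Wnt and BMP signals stood higher in part of the members. Of 23 tested genes 11 lay above and 3 below (median log2 difference 1.86), and without the members at 1000 CPM or more of Dcn 9 of 22 lay above. Dkk3 stood at 884 and 920 CPM against 120 and 45.3 CPM. Frzb, a secreted decoy of the Wnt receptor, stood at 93.8 and 212 CPM against 2.35 and 3.11 CPM, and was at 100 CPM or more in 15.5% of members. Bmp5, a ligand, ran the other way at 10.9 and 1.92 against 78.3 and 96.8 CPM. Other secreted factors that lay higher were Ccn3, a matricellular protein, at 522 and 503 CPM against 67.6 and 72.3 CPM, and Igf1, a growth factor, at 167 and 177 CPM against 1.76 and 1.38 CPM. Igf1 stood at 62.2 and 71.8 CPM when the Dcn-positive members were left out. The complement gene C4b stood at 136 and 341 CPM against 1.40 and 1.90 CPM.

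Matrix proteases and their inhibitors lay mostly higher as well, with 17 of 30 above in both mice and 2 below (median log2 difference 1.16). Without the Dcn-positive members 14 of 28 lay above and 3 below. Nox4, a subunit of an enzyme that makes hydrogen peroxide, stood at 441 and 252 CPM against 28.01 and 11.8 CPM. Fhl1, a LIM-domain protein of muscle, stood at 2166 and 2628 CPM against 441 and 422 CPM and was at 100 CPM or more in 94.5% of members and 25.6% of Rgs5-high cells. Aebp1, a collagen-binding protein, stood at 528 and 616 CPM against 19.0 and 22.3 CPM (log2 difference 4.79, SE 0.23, edgeR adjusted p = 0.0976). No gene outside the rule had a lower adjusted p in this comparison.

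The contractile apparatus was alike in level. Of 25 tested genes 8 lay above and 5 below, with a median log2 difference of 0.03. Acta2, smooth muscle actin, stood at 4972 and 8225 CPM in members against 5328 and 8010 CPM, and Myl9, the regulatory light chain of myosin, at 3080 and 5069 CPM against 3557 and 5176 CPM. The spread between the mice was wider than the difference between the classes in both genes, and the sign of the small difference changed with the cells used. Actg2, the enteric form of smooth muscle actin, lay higher at 834 and 1130 CPM against 323 and 448 CPM. The actin-binding protein smoothelin, encoded by Smtn, also lay higher at 1690 and 2413 CPM against 962 and 937 CPM. Des, which encodes the intermediate filament desmin, lay lower at 736 and 994 CPM against 1590 and 1573 CPM.

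Calcium handling and ion channel genes lay mostly lower in members. Of 31 tested genes, 17 lay below in both mice and 4 above (median log2 difference -0.94), and DESeq2 called 12 lower and 2 higher. Casq2 stood at 88.6 and 229 CPM against 1167 and 1611 CPM. Pln stood at 348 and 560 CPM against 943 and 1007 CPM, and Atp2a3, a calcium pump of the store, at 47.7 and 101 CPM against 391 and 514 CPM. The level of Pln averages members at 100 CPM or more, with 1074 and 977 CPM, and the others, with 2.52 and 4.49 CPM. Casq2 stood at 237 and 398 CPM in the former and 18.2 and 2.99 CPM in the latter. Ano1, a calcium-activated chloride channel, stood at 162 and 158 CPM against 556 and 530 CPM. Kcnh2, a voltage-gated potassium channel, and Kcnmb1, a subunit of the calcium-activated potassium channel, lay higher, at 218 and 212 against 94.2 and 91.3 CPM and at 394 and 513 against 267 and 255 CPM. The log2 difference of Kcnmb1 was 0.78 in the reported fit. In a joint fit of 4 classes it was 0.86 with both mice, -0.038 without mouse 2 and 1.39 without mouse 1. That fit differs in its classes and scaling, so its values are not those of 1 mouse alone. Without the members at 1000 CPM or more of Dcn, 16 of 31 genes of the list lay below and 3 above.

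The list of vasoactive receptors was split, with 15 of 41 tested genes above in both mice and 15 below. Notch, a receptor through which neighbouring wall cells signal, gave a list that lay mostly lower. Of 14 tested Notch pathway genes 9 lay below and 1 above (median log2 difference -0.83), and the same counts held without the Dcn-positive members. Notch3, the main Notch receptor of mural cells, stood at 177 and 234 CPM against 919 and 1115 CPM, and its feedback gene Nrarp at 33.7 and 26.4 CPM against 244 and 186 CPM. Heyl, a target gene, ran the other way at 953 and 1054 against 501 and 754 CPM. S1pr3 stood at 211 and 552 CPM against 1035 and 1426 CPM, and the endothelin receptor Ednra at 199 and 255 CPM against 735 and 522 CPM. Nearly all S1pr3 of the members lay in those with Pln, at 648 and 963 CPM. The T-box transcription factors Tbx2 and Tbx3 stood at 45.7 and 26.9 CPM against 279 and 160 CPM and at 15.9 and 36.9 CPM against 115 and 203.3 CPM. In each of these genes except Heyl both sums of members lay below both sums of Rgs5-high cells.

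Genes of oxidative phosphorylation lay lower in 13 of 26 tested and higher in 0 (median log2 difference -0.42), and those of glycolysis lower in 9 of 19. Mitochondrially encoded transcripts made up a median of 1.93% of counts in members and 2.60% in Rgs5-high cells. The insulin-responsive glucose carrier Slc2a4 stood at 171 and 221 CPM against 487 and 682 CPM. The fatty acid carrier Cd36 stood at 11.9 and 1.15 CPM against 217 and 241 CPM. Median depth differed between the classes, mainly in mouse 1, as given above, and its part in these differences was not tested.

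**Figure D4:**
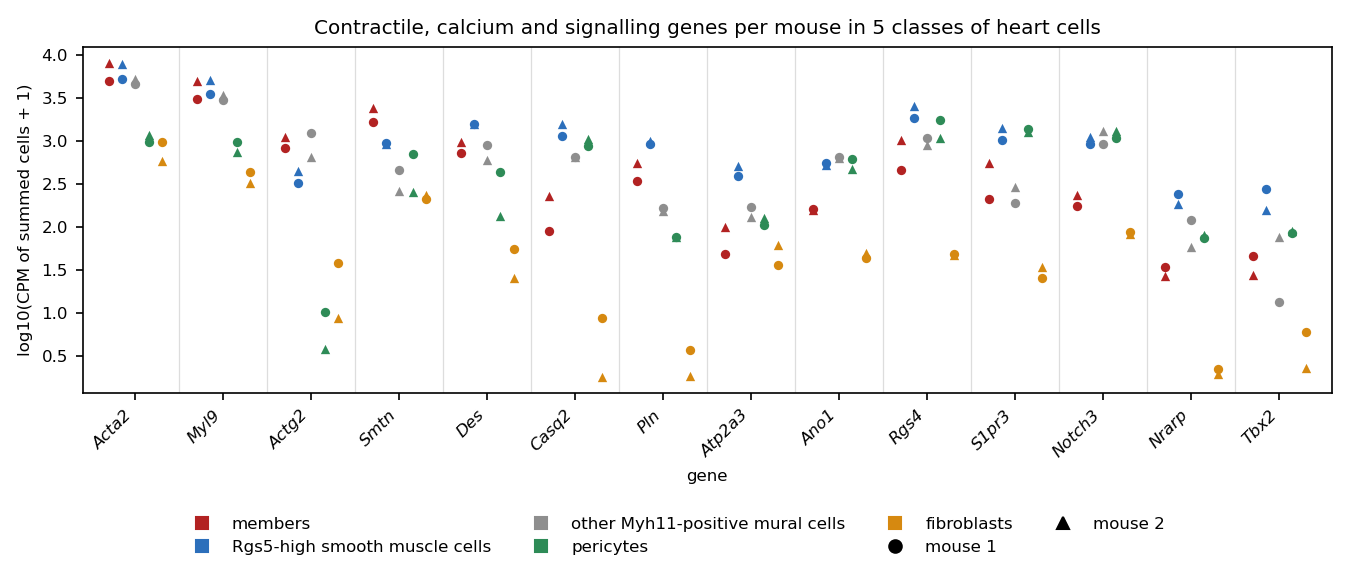
Levels of 14 contractile, calcium-handling and signalling genes as log10(CPM + 1) of the summed cells of each class, in ACTA2GFP:CSPG4dsRED mouse 1 (circles) and mouse 2 (triangles). Members sit beside Rgs5-high cells in Acta2 and Myl9 and below them in Casq2, Atp2a3, Ano1, Notch3, Nrarp and Tbx2.

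The second comparison set members against fibroblasts in the same 2 mice. Valve-like markers, Wif1 among them, summed to 7165 and 10060 CPM in these fibroblasts, against 149 and 292 CPM in members. The sum was over 500 CPM in 163 of the 207 fibroblasts, so the differences below are from a largely valve-like class. By edgeR's quasi-likelihood test with Benjamini-Hochberg adjustment, 314 of 16469 genes passed (1.91%), 165 higher in members (1%) and 149 lower (0.905%). Without mouse 1, 28 genes passed, and without mouse 2, 0 passed, in a joint fit in which the lone sum of members is assumed to vary like the other classes. Of 25 tested contractile genes 18 rose and 0 fell, and of 31 ion channel and calcium store genes 5 rose and 0 fell. Members were cut on high Myh11, and fibroblasts on low Myh11 and high Dcn. The direction of genes that go with Myh11 or Dcn is thus set in part by that choice. These counts, and those of the matrix lists below, are a description. Acta2 stood at 4972 and 8225 CPM against 971 and 594 CPM (log2 change 3.10, SE 0.41, adjusted p = 0.046), and Mylk, the kinase that activates myosin, at 1877 and 2491 CPM against 94.2 and 74.2 CPM (log2 change 4.72, SE 0.29, adjusted p = 0.0147). Myocd, the coactivator of contractile genes, rose by 4.40 on the log2 scale (SE 0.47, adjusted p = 0.0284), from 39.9 and 11.9 CPM to 497 and 412 CPM.

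The largest increases over fibroblasts came from genes nearly silent there. Gpr20, a G protein-coupled receptor, stood at 96.7 and 226 CPM in members against 0.117 and 0.390 CPM (log2 change 9.37, SE 0.43, adjusted p = 0.0124). Grip2, a scaffold protein, stood at 77.5 and 157 CPM against 0.205 and 0.390 CPM. Sgca, a sarcoglycan of the muscle membrane, stood at 103 and 130 CPM against 0.556 and 0.240 CPM. Each of these 3 was at 100 CPM or more in 25.5% to 31.8% of members and in 0% of fibroblasts. Cbr2, a carbonyl reductase, stood at 252 and 325 CPM against 0.673 and 1.68 CPM, and was at that level in 44.5% of members. Corin, a membrane protease that activates natriuretic peptide, stood at 117 and 295 CPM against 0.205 and 3.63 CPM.

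Matrix genes split between the members and the fibroblasts. Of 27 tested collagen and proteoglycan genes 9 fell and 0 rose in members. Col1a1 stood at 895 and 938 CPM in members against 2421 and 3967 CPM (log2 change -1.73, SE 0.23, adjusted p = 0.0467). Col12a1 fell by 5.25 on the log2 scale, and the proteoglycan Prelp stood at 1291 and 1707 CPM against 4659 and 5679 CPM (adjusted p = 0.025). Of 21 elastic fibre genes 1 rose and 3 fell: Ltbp1 rose by 1.68, and Fbln2, Ltbp2 and Mfap2 fell by 4.62, 4.28 and 1.88. Without the members at 1000 CPM or more of Dcn, 0 of the 21 were called higher and 6 lower, so that Ltbp1 did not pass (log2 difference 1.77). Of the 27 collagen and proteoglycan genes 10 were called lower. More genes were called in that fit over all genes as well, 455 of 16072 (2.83%), of which 231 were lower and 224 higher. Fbln5, Mfap4 and Col3a1 did not pass, with 1411 and 1650 CPM of Fbln5 in members and 1405 and 1574 CPM in fibroblasts, a difference whose sign changed without the Dcn-positive members. Col18a1 rose by 4.41 (SE 0.34, adjusted p = 0.0178), from 19.2 and 48.6 CPM to 562 and 721 CPM, and Lama5 by 2.49.

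Of 48 tested vasoactive receptor and G protein signalling genes 9 rose and 3 fell, and of 30 matrix proteases and inhibitors 0 rose and 4 fell. Without the Dcn-positive members 10 of 47 and 0 of 29 were called higher, and 3 and 6 lower. Calls rose over all genes in that fit, to 455 of 16072 (2.83%), 224 higher and 231 lower. Lpar1, a lysophosphatidic acid receptor, fell by 6.67 on the log2 scale (1.02 and 4.10 CPM against 137 and 334 CPM), while Npy1r, a neuropeptide Y receptor, rose by 4.51 (180 and 270 CPM against 6.88 and 14.1 CPM). Meox1, a homeobox factor of activated fibroblasts, stood at 2.43 and 2.57 CPM in members against 685 and 919 CPM (log2 change -8.27, SE 0.29, adjusted p = 0.00915). Sox9, a factor of cartilage and valve development, fell by 3.94, the matrix protease Mmp2 by 3.34 and the Wnt inhibitor Wif1 by 3.47. Meox1 was at 100 CPM or more in 0% of members, those at 1000 CPM or more of Dcn included, and in 64.7% of fibroblasts.

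Because contractile genes are known targets of serum response factor, the promoters of the genes higher in members were searched for its binding motif, the CArG box. The 250 bases before a gene's start were read on both strands from RefSeq windows on GRCm38.p6. The sequences below show 3 genes higher in members that hold a match, against 2 given markers that hold none. Capitals mark the match, written 5′ to 3′ on the gene's strand. They lie at chr2:156775214-156775463 (Myl9, plus strand), chr14:34588682-34588931 (Ldb3, the first of 2 starts, minus strand), chr11:120732022-120732271 (Cbr2, minus strand), chr3:132950292-132950541 (Npnt, the first of 2 starts, minus strand) and chr11:101967016-101967265 (Sost, minus strand).
Myl9: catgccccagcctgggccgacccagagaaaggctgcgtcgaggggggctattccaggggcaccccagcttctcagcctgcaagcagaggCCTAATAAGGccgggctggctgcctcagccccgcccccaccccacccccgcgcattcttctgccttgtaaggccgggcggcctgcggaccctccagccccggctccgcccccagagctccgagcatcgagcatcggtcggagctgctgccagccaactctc
Ldb3: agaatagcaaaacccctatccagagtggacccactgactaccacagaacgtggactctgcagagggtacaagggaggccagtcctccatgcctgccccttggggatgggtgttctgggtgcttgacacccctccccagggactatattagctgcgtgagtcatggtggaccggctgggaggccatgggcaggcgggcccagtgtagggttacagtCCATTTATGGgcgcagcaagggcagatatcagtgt
Cbr2: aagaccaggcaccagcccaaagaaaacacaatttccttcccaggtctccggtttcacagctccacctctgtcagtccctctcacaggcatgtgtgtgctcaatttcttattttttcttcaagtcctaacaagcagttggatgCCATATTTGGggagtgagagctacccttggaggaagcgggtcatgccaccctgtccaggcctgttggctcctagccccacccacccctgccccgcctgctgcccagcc
Npnt: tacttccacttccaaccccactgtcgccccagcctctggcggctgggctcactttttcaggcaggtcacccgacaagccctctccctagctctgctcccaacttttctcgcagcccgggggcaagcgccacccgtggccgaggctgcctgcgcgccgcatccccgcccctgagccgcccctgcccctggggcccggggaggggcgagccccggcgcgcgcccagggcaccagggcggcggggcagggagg
Sost: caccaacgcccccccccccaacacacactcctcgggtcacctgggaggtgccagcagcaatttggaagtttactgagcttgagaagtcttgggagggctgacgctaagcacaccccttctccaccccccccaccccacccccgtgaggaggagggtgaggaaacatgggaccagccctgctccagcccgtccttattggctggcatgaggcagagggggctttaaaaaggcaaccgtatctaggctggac

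The matches lay at positions -161 to -152 from the start in Myl9, -35 to -26 in Ldb3 and -108 to -99 in Cbr2. Myl9 rose by 3.41 against fibroblasts (SE 0.35, adjusted p = 0.0269), and Ldb3, a protein of the muscle Z-disc, rose by 7.30 against pericytes. A CArG box was present in 1.47% of all 32851 windows, and in a window of 1.62% of 27025 genes. Of the genes higher in members than in fibroblasts, 12 of the 121 with a window held it (9.92%), as did 3 of 105 of those lower in members (2.86%). Against pericytes the counts were 7 of 62 higher genes (11.3%) and 1 of 53 lower genes (1.89%). Members were cut on high Myh11 and both other classes on lower Myh11. Contractile genes among the higher genes are thus set in part by that choice, and these shares are a description. In the contractile list 5 of 23 genes with a window held it, in the elastic fibre list 0 of 14 and in the collagen and proteoglycan list 0 of 18. In the basement membrane list 1 of 16 held it. Of the 4 given markers with a window, the contractile gene Cnn1 among them, 0 held it. At the share of 1.62% over all genes, lists of these sizes would hold few or none, so a count of 0 says little. A match describes letters only, and binding was not measured. Myh11 and Eln have no entry among the windows.

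The third comparison set members against pericytes in the same mice. By edgeR's quasi-likelihood test, 172 of 14080 genes passed after Benjamini-Hochberg adjustment (1.22%), 95 higher in members (0.675%) and 77 lower (0.547%). Without mouse 1, 19 genes passed, and without mouse 2, 2 passed, in the same kind of joint fit. Of 25 tested contractile genes 14 rose and 0 fell. Pericytes were cut on Myh11 under 1000 CPM, so this direction too is set in part by the choice of the classes. Actg2 stood at 834 and 1130 CPM in members against 9.34 and 2.81 CPM (log2 change 7.41, SE 0.67, adjusted p = 0.0149), and Lmod1, which starts actin filaments, rose by 4.42. Itih4, a serum protein, stood at 1644 and 2295 CPM against 12.03 and 8.89 CPM (log2 change 7.55, SE 0.43, adjusted p = 0.0049) and was at 100 CPM or more in 76.4% of members. Plin4, a coat protein of lipid droplets, stood at 190 and 193 CPM against 0.560 and 0.935 CPM.

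Matrix genes moved both ways against pericytes. Ltbp1 rose by 3.33 and Col18a1 by 4.28 on the log2 scale. Nid1, the basement membrane linker nidogen, fell by 4.15 (39.1 and 35.1 CPM against 658 and 695 CPM), and Col5a3 by 9.55 (0.720 and 0.128 CPM against 332 and 332 CPM). Col6a1 and the laminin chain Lama2 fell by 2.84 and 2.88. The median over the 27 collagen and proteoglycan genes was 0.08, beside 0.29 over all genes tested. Fbln5 and Mfap4 did not pass the test, at 1411 and 1650 against 9.46 and 129 CPM (adjusted p = 0.0637) and at 1258 and 1479 against 10.7 and 263 CPM (adjusted p = 0.185). In both genes the pericyte sum of mouse 2 was the higher, and the pericytes of mouse 2 held 9499 CPM of summed fibroblast markers against 3666 CPM in those of mouse 1.

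Of 43 tested vasoactive receptor and G protein signalling genes 2 rose and 4 fell against pericytes, with a median log2 difference of 1.06. Notch3 fell by 2.52 (SE 0.30, adjusted p = 0.0218), from 1101 and 1313 CPM, and Pdgfrb, the platelet-derived growth factor receptor needed for mural cell recruitment, fell by 2.58, from 3060 and 4025 CPM to 430 and 762 CPM. Ednrb, the endothelin B receptor, stood at 1.89 and 0.770 CPM against 260 and 450 CPM (log2 change -7.97, SE 0.75, adjusted p = 0.0149). Casq2 fell too, from 879 and 1063 CPM to 88.6 and 229 CPM. Ramp1, a partner of the receptor for calcitonin gene-related peptide, rose by 6.01, and Kcnh2 by 7.37. Nr4a1, an immediate early gene, rose by 2.83 (784 and 900 CPM against 133 and 111 CPM), the 1 called gene of 25 in its list.

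**Figure D5:**
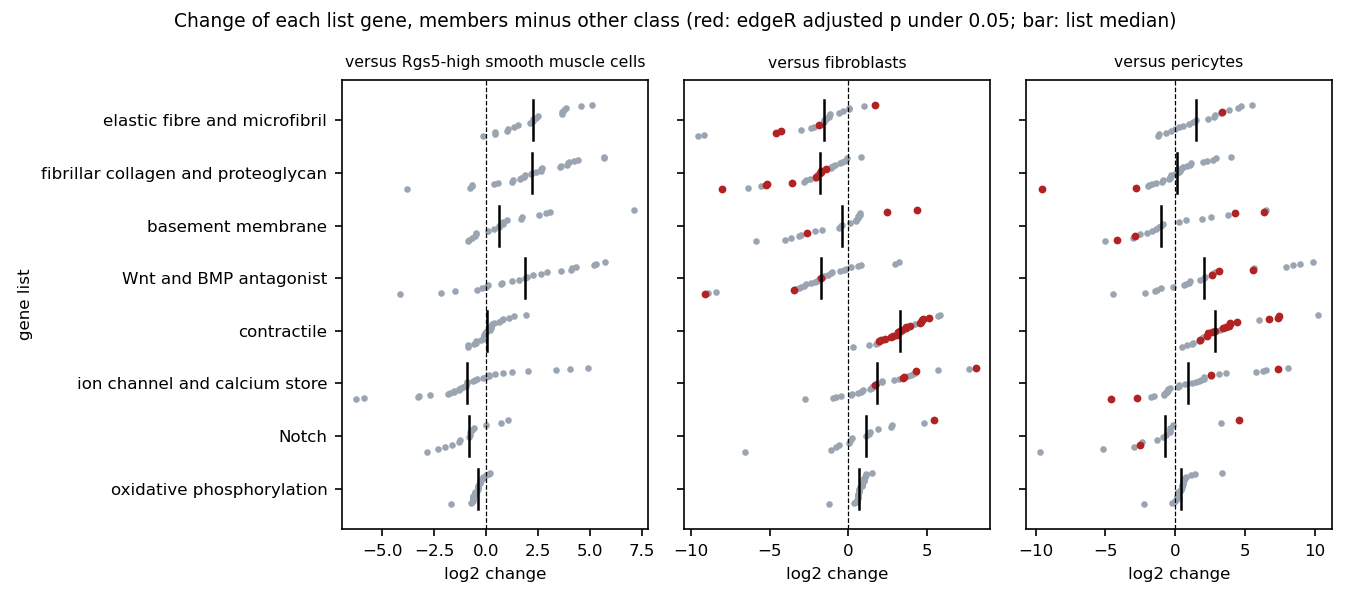
Each point is the log2 change of 1 gene, members minus the other class, in 8 gene lists; red points passed edgeR's test at an adjusted p of 0.05 and bars are list medians. Contractile genes lie near 0 against Rgs5-high cells and above 0 against fibroblasts and pericytes, while the medians of the elastic fibre and collagen lists lie above 0 against Rgs5-high cells and below 0 against fibroblasts.

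The other Myh11-positive mural cells, which failed the Vtn or channel criterion, were compared by values only. They held 475 and 688 CPM of Eln, nearer to the members than the Rgs5-high cells were, and 140 and 339 CPM of Fbln5, well below the members. Their Itga8 stood at 44.2 and 221 CPM and their Sost at 2.05 and 0 CPM. Notch3 stood at 919 and 1333 CPM and Pdgfrb at 1857 and 1844 CPM, above the members in both mice. High Eln was thus shared with these cells, whereas Itga8, Sost and Fbln5 lay higher in the members of both mice.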

How the data were processed

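The submitters deposited raw gene counts for 1307 Smart-Seq2 cells, and their processing notes name bcl2fastq, Bowtie, Bowtie2, Subread, featureCounts and the builds GRCm38 and mm10, with no versions, per the labels. Reads carry no molecular identifiers. The intervals on shares count cells and cover counting error only. CPM was computed here from the deposited counts. Members, classes and gene lists were chosen with earlier results of these data known.

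Counts of the cells of a class were summed per mouse, for mice with at least 5 cells of both classes. The sums were compared with edgeR 4.0.16 in R 4.3.3, by its quasi-likelihood test with TMM scaling, filterByExpr and the mouse as a block, since both classes came from the same animals. A call is a Benjamini-Hochberg adjusted p under 0.05 over all genes tested. With 2 mice, the fit has little information on the spread. Genes of the rule and the given markers were left out of the counts of calls. DESeq2 1.42.0 was an alternative, as were other scalings, filters, thresholds, cell sets and leaving out each mouse.

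On simulated counts for members against Rgs5-high cells, over 13210 genes, the edgeR step recovered 47 of 96 genes changed 8-fold and 71 of 97 changed 32-fold, and called 22 unchanged genes. The naming rule took, in each comparison, the 8 called genes with the largest change each way at a mean log2 CPM of at least 5, and the 2 largest called changes each way in each list. Genes named without a call, and some called genes with known roles, were chosen after their values were seen. Of 46517 genes 46005 had a symbol. No doublet caller was run, and cells with markers of other types were left out in an alternative.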

Additional observations from a re-analysis of the deposited data

Results flagged for a closer look

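A few members came from animals that entered no test, and their summed counts gave higher levels of 3 given marker genes than those of the Rgs5-high cells of the same animal. The 1 member of ACTA2GFP:CSPG4dsRED mouse 3 held 678 CPM of Itga8, 678 CPM of Npnt and 869 CPM of Eln, against 171, 43.2 and 5.44 CPM in the 17 Rgs5-high cells of that mouse. The 3 members of C57BL/6 mouse 1, which carries no reporter in its name, summed to 919 CPM of Itga8, 410 CPM of Npnt and 746 CPM of Eln, against 4.61, 0 and 131 CPM in its 2 Rgs5-high cells. Of these 3 members 1 carried all the Npnt and Eln, and the other two held 0 CPM of both and 432 and 91.8 CPM of Itga8. Among the Rgs5-high cells of mouse 3, 1 held 1987 CPM of Itga8 and 804 CPM of Npnt, above the lone member. Beside the given markers, the genes that DESeq2 called against Rgs5-high cells recurred only in part. Of 707 called higher in members, 273 were higher in the mouse 3 member and 348 in the C57BL/6 members. Of 402 called lower, 361 and 187 were lower, and the rest were equal or opposite. These are values of very few cells, and the differences were not tested.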

How the results depend on the processing

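Counts of calls are given with their percent of the genes tested. Against Rgs5-high cells, where edgeR called 0 genes, 110 passed with no filter on low counts (0.49%), 1109 with DESeq2 (8.07%), 19 with no replicate block (0.138%), 9 with members under 200 CPM of Rgs5 (0.0665%) and 74 with cells thinned to 50000 counts (0.639%). Leaving out a mouse gave 0 to 1 (0% to 0.00589%). Against fibroblasts, with 314 calls, 717 passed with no filter (2.87%), 2040 with DESeq2 (12.4%), 63 with members under 200 CPM of Rgs5 (0.389%), 589 with thinned cells (4.44%) and 101 in a joint fit of 4 classes (0.572%), an alternative chosen after seeing the data. Leaving out a mouse gave 0 to 28 (0% to 0.165%), and leaving out the replicate block 427 (2.59%). Against pericytes, with 172 calls, 327 passed with DESeq2's size factors in edgeR (2.32%), 281 with library size only (2.00%), 424 with no filter (1.88%), 1223 with DESeq2 (8.69%), 280 with deep cells only (2.02%) and 72 without cells with markers of another type and Dcn-positive members (0.593%). With thinned cells 2.66% passed, 171 higher and 145 lower. Leaving out a mouse gave 2 to 19 (0.0101% to 0.112%), and leaving out the replicate block 119 (0.845%). Leaving out a mouse leaves 1 sum of members, and for the other changes the cause was not tested.

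The share of members in ACTA2GFP:CSPG4dsRED mouse 1, 19.8%, was 14.7% with Myh11 at 2000 CPM or more and 15.5% with Rgs5 under 200 CPM. The genes whose sign turned had not passed edgeR's test in the reported fit, although Tnnt2 passed with DESeq2. Against Rgs5-high cells without cells with markers of another type and Dcn-positive members, the log2 difference was -0.46 for Fbn1, 0.093 for Acta2, 0.041 for Myl9, -0.34 for Tnnt2 and -0.047 for Actc1. For Acta2 it was also 0.0051 with Rgs5 under 200 CPM, 0.067 with Myh11 at 2000 CPM or more, 0.037 with thinned cells and 0.050 without Dcn-positive members. Leaving out a mouse, in a joint fit of 4 classes, gave -0.038 to 1.39 for Kcnmb1 and -0.21 to 4.49 for Actc1. The lower value of each was without mouse 2. Against fibroblasts, Fbln5 was at -0.27 with Myh11 at 2000 CPM or more, -0.45 without cells with markers of another type and Dcn-positive members, -0.18 with thinned cells and -0.28 without Dcn-positive members.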
